A study of Bos taurus with 15 samples.

Results

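A set of 10 DNA replication genes was followed across the cell lineages of newborn (NB) and adult (AD) cattle tissues: *MCM2*, *MCM3*, *MCM4*, *MCM5*, *MCM6*, *MCM7*, *PCNA*, *RRM2*, *TK1*, and *UHRF1*. They were taken by their symbols from the gene list of the count tables, in which each of the 10 symbols had 1 identifier among 27270 listed genes. Their levels were read in barcodes that carried at least 1 unique molecular identifier (UMI, 1 captured RNA molecule) of a lineage marker. The markers were *EPCAM* or *KRT14* (epithelial), *CD3E* (T cell), *MS4A1* (B cell), *C1QA* (macrophage), *PECAM1* (endothelial), and *COL1A2* (fibroblast).

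A cell copies its genome before it divides, in S phase. The proteins of *MCM2* to *MCM7* form the ring-shaped helicase that is loaded onto origins in G1 and unwinds DNA at the fork. The protein of *PCNA* is the clamp that holds the polymerases on DNA, those of *RRM2* and *TK1* supply deoxynucleotides, and that of *UHRF1* reads newly copied, hemimethylated DNA and brings in the maintenance methyltransferase DNMT1. The RNAs of these genes rise as cells enter the cycle, so they are widely read as signs of dividing cells in crypt epithelium, basal layers of stratified epithelium, lymphoid follicles, and thymus. In young ruminants the ileal Peyer's patch is known as a site where B cells divide.

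The 15 single-cell RNA libraries came from Holstein dairy cattle, and each tissue and stage had 1 library. The 4 AD libraries were duodenum, jejunum, cecum, and colon. The 11 NB libraries came from the same 4 organs and from the ileum and rectum, 3 stomach compartments (the abomasum and, of the forestomach, the omasum and reticulum), the salivary gland, and the liver. The labels name no treatment and no genotype beyond the breed. All 4 AD tissues were taken from a single lactating cow, whereas the NB tissues came from several calves that the sources used here do not tie to libraries. The AD duodenum and cecum were dissociated with a lamina propria kit and the AD jejunum and colon with a multi tissue kit. The NB intestine was first treated with EDTA and trypsin and then with a propria kit. Other enzyme mixes were used for the NB stomach compartments, liver, and salivary gland, so tissue and dissociation are mixed among NB libraries too. Stage, animal, and dissociation therefore cannot be told apart, no test between stages was possible, and all intervals given here are 95% intervals of counting error only.

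Total UMIs ran from 17707625 to 129458578 per library, and 2636 to 11614 barcodes per library were kept (119798 of 172405 in all). The median UMIs per kept barcode were 3503.5 to 3852 in the AD libraries and 4266 to 8804.5 in the NB libraries. No pair of libraries shared more than 0.498% of the kept barcodes of the smaller one. Of 90 groups of library and marker, 78 had at least 50 barcodes and were used. A barcode could belong to more than 1 group. Levels are given as CPM. For this, a gene's UMIs were added up within a group of barcodes and set against all UMIs of the group, on the usual CPM scale. They were compared within a gene, except where shares of a sum or the values of different genes in the same group are printed as such.

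For each lineage, 6 further markers were used to check each label. In 56 of the 78 groups at least 50% of the barcodes carried 2 or more of them. The *CD3E* groups were supported throughout, with 59.3% of barcodes in the NB ileum to 96.4% in the AD cecum. In 10 groups fewer than 20% of the barcodes were supported. These were *EPCAM* or *KRT14* in the AD duodenum (13.7%), *MS4A1* in the NB jejunum (9.28%), NB cecum (15.9%), and NB rectum (11.2%), and *PECAM1* in all 4 AD libraries (0.312% to 15.7%), the NB liver (2.54%), and the NB salivary gland (13.3%). Of the 441 *PECAM1* barcodes of the AD duodenum, 264 also carried *CD3E*, and of the 204 *EPCAM* or *KRT14* barcodes of that library, 138 did. These groups are called by their rule below, and their values cannot be read as those of an epithelial, B cell, or endothelial population.

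The replication genes were highest in B cell barcodes of the newborn ileum and colon. The summed level of the 10 genes was 2610 CPM in the *MS4A1* barcodes of the NB ileum (3986 barcodes) and 1824 CPM in those of the NB colon (1071 barcodes). Only 7 other groups of the 78 reached 1000 CPM, and all 9 were NB groups. The lowest level, 54.1 CPM, was found in the epithelial barcodes of the NB abomasum, the glandular stomach. Those 4900 barcodes gave 59.5% of their UMIs to 10 genes, and *CYM*, which encodes the milk-clotting protease chymosin, took 24.1% alone. When the 10 most abundant genes of each group were left out of the total, a choice made after the data were seen, the NB abomasum epithelial barcodes were still the lowest of the 78 groups at 134 CPM.

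**Figure D1:**
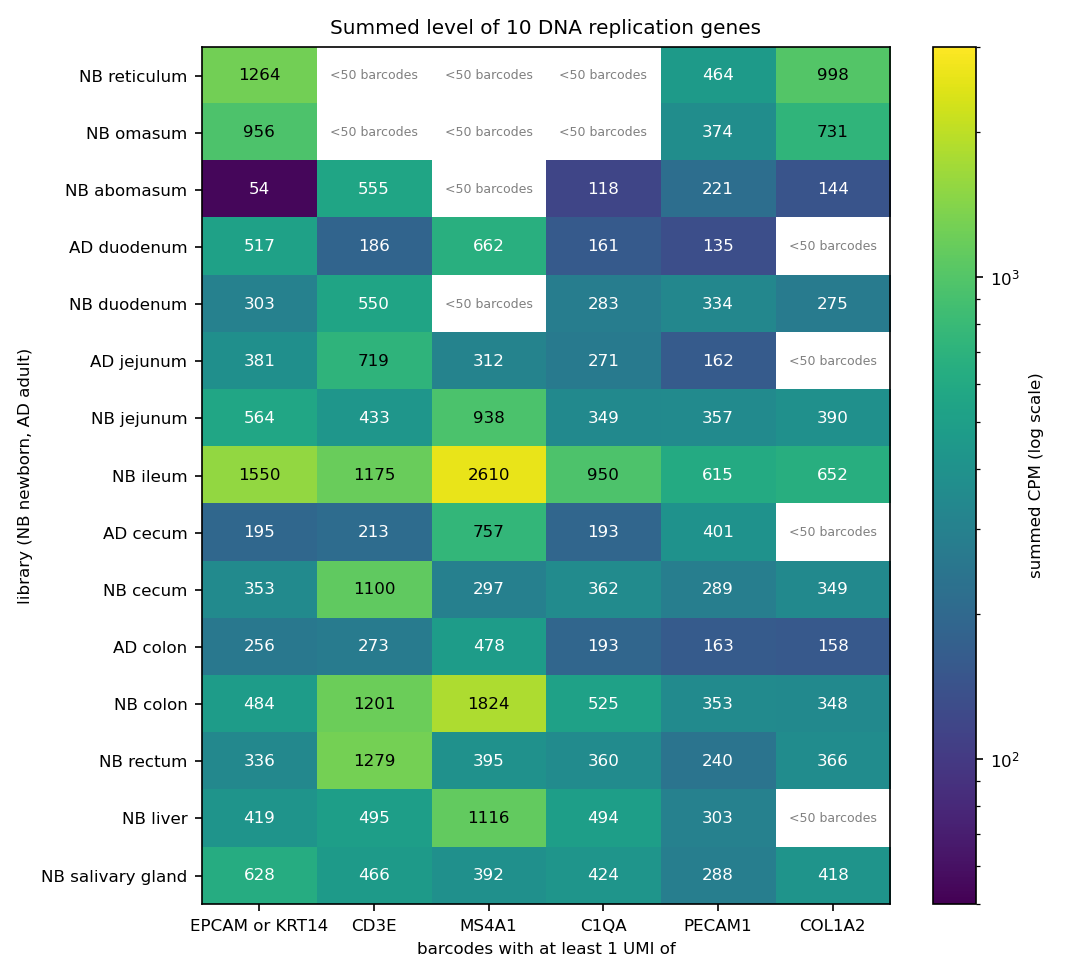
Summed CPM of the 10 replication genes in each library (rows) and marker group (columns), with the value printed in each cell and the color on a log scale; cells without a value had fewer than 50 barcodes. The *MS4A1* barcodes of the NB ileum (2610) and NB colon (1824) are the brightest cells, and the epithelial barcodes of the NB abomasum (54) the darkest.

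Within the NB ileum the genes were high in every group. The epithelial barcodes held 1550 CPM, the *CD3E* barcodes 1175 CPM, the *C1QA* barcodes 950 CPM, the *COL1A2* barcodes 652 CPM, and the *PECAM1* barcodes 615 CPM. Barcodes of that library with none of the 6 markers held 917 CPM. Many of these barcodes also carried *MS4A1*, at 369 of 856 epithelial, 210 of 680 *C1QA*, and 31 of 140 *CD3E* barcodes. With 2 or more further markers required, the levels were 847 CPM in epithelial, 752 CPM in *CD3E*, 397 CPM in *C1QA*, 471 CPM in *COL1A2*, and 347 CPM in *PECAM1* barcodes, whereas the *MS4A1* barcodes held 2749 CPM. The part of B cell RNA in the other groups of the NB ileum was not tested.

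Among epithelial barcodes outside the ileum, the forestomach stood highest. The NB reticulum held 1264 CPM (95% interval 1255 to 1272, 6450 barcodes) and the NB omasum 956 CPM (949 to 962, 9481 barcodes). With further markers required, these levels were 1244 and 941 CPM. Both are stratified squamous epithelia, and no AD library of either was analyzed here. The epithelial barcodes of the other NB organs ran from 303 CPM in the duodenum to 628 CPM in the salivary gland, apart from the abomasum. The salivary gland value rests on 71 barcodes, of which 36 also carried *CD3E* and only 23 carried 2 or more further epithelial markers. The *COL1A2* barcodes were also high in these 2 forestomach libraries, at 998 CPM in the reticulum and 731 CPM in the omasum. In those libraries 146 of 233 and 302 of 511 *COL1A2* barcodes also carried an epithelial marker, and with 2 further fibroblast markers the levels were 419 and 358 CPM.

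T cell barcodes ranged from 186 to 1279 CPM. The *CD3E* barcodes held 1279 CPM in the NB rectum, 1201 CPM in the NB colon, 1175 CPM in the NB ileum, and 1100 CPM in the NB cecum. The AD jejunum followed with 719 CPM, above the NB abomasum (555), NB duodenum (550), NB liver (495), NB salivary gland (466), and NB jejunum (433). The AD colon (273), AD cecum (213), and AD duodenum (186) were lowest. Among neighbors in this order, the counting intervals of the NB ileum overlapped those of the NB rectum, NB colon, and NB cecum. The NB duodenum overlapped the NB abomasum and NB liver, and the NB salivary gland overlapped the NB jejunum. No order is read within these overlapping pairs, and overlap alone does not show equal levels. With 2 further T cell markers the NB ileum fell to 752 CPM (83 barcodes), below the AD jejunum at 815 CPM and the NB abomasum at 791 CPM.

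The *C1QA*, *PECAM1*, and *COL1A2* barcodes had lower medians over the NB libraries than the *CD3E* barcodes (555 CPM). Across the 9 NB libraries with enough *C1QA* barcodes, the summed level ran from 118 CPM in the abomasum over a median of 362 CPM to 950 CPM in the ileum. For *PECAM1* the 11 NB libraries ran from 221 CPM in the abomasum over a median of 334 CPM to 615 CPM in the ileum. The liver and salivary gland groups among them were not supported by further endothelial markers. For *COL1A2* the 10 NB libraries ran from 144 CPM in the abomasum over a median of 378 CPM to 998 CPM in the reticulum. As a reference, plasma cell barcodes (10 or more *JCHAIN* UMIs without *MS4A1*) held 62.6 CPM in the AD duodenum, 52.6 CPM in the AD cecum, 93.4 CPM in the AD colon, and 196 CPM in the AD jejunum. In the NB libraries with 50 or more of them they held 373 CPM in the colon, 570 CPM in the ileum, and 678 CPM in the cecum.

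The 6 helicase genes mostly moved together over the 78 groups. *MCM2* ran from 2.31 to 140 CPM, *MCM3* from 2.36 to 150 CPM, *MCM4* from 3.03 to 154 CPM, *MCM5* from 4.73 to 327 CPM, *MCM6* from 2.23 to 152 CPM, and *MCM7* from 16.6 to 297 CPM. The lowest value of each came from the epithelial barcodes of the NB abomasum and the highest from the *MS4A1* barcodes of the NB ileum. *MCM2* varied most, with a 90th percentile 8.86 times the 10th, and *MCM6* least, at 3.78 times. The make-up of the helicase set was therefore not fixed. *MCM7* gave 53.0% of the summed helicase CPM in the NB abomasum epithelial barcodes and 17.5% in the *CD3E* barcodes of the AD jejunum, with a median of 26.6%. *MCM2* gave 4.81% of that sum in the *CD3E* barcodes of the AD duodenum and 18.1% in the *MS4A1* barcodes of the NB rectum. *MCM6* gave its lowest share, 6.16%, in the NB reticulum epithelial barcodes, where *MCM2* reached 115 CPM and *MCM6* 41.5 CPM.

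*PCNA*, the clamp gene, and *MCM4* held nearly the same part of the sum in groups of low and high sums. *PCNA* ran from 17.2 CPM in the NB abomasum epithelial barcodes to 817 CPM in the NB ileum *MS4A1* barcodes, and its share of the 10-gene sum had a median of 29.5% in the 20 groups with the lowest sums and 29.3% in the 20 with the highest. For *MCM4* these medians were 6.62% and 6.58%. Across the 9 NB libraries with enough *CD3E* barcodes, *PCNA* ran from 155 CPM in the liver over a median of 165 CPM to 411 CPM in the ileum. In the AD libraries it held 48.3 CPM in the duodenum, 61.9 CPM in the cecum, 74.0 CPM in the colon, and 195 CPM in the jejunum. The AD jejunum thus lay inside the NB range, and the other 3 AD libraries lay below it.

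The nucleotide supply genes behaved unlike each other. *RRM2*, the small subunit of ribonucleotide reductase whose protein is made in S phase, had the widest spread of the 10, with a 90th percentile 18.1 times the 10th. Its share of the sum had a median of 3.44% in the 20 groups with the lowest sums and 7.16% in the 20 with the highest. *TK1*, the cytosolic thymidine kinase of the salvage route, spread 4.45 times, and its share went the other way, from 11.02% to 7.50%. *RRM2* had no UMI in the 190 *COL1A2* barcodes of the AD colon, where *TK1* held 16.0 CPM. In the NB jejunum *MS4A1* barcodes *RRM2* reached 151 CPM, below only 167 CPM in the NB ileum, but those NB jejunum barcodes are among the groups whose further markers were missing.

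*UHRF1* had a pattern of its own in newborn colon T cell barcodes. Its highest level was 289 CPM (95% interval 274 to 305, 810 barcodes) in the *CD3E* barcodes of the NB colon, above 250 CPM in the NB ileum *MS4A1* barcodes, and it was the only one of the 10 genes not highest in the latter. The other *CD3E* groups ran from 2.89 CPM in the AD duodenum to 105 CPM in the NB cecum and NB ileum. *UHRF1* gave 24.1% of the 10-gene sum in the NB colon *CD3E* barcodes, the highest share over the 78 groups, where the median was 6.80%. The level was 335 CPM with 2 further T cell markers and 335 CPM when barcodes with a marker of another lineage were left out.

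In the NB colon *CD3E* barcodes *UHRF1* was often found beside *RAG1*, a gene of the recombinase that cuts antigen receptor genes in immature lymphocytes, which was chosen after its values were seen. *RAG1* was detected in 30 of 165 *UHRF1* barcodes (18.2%, exact binomial 95% interval 12.6 to 24.9) and in 14 of 645 without *UHRF1* (2.17%, 1.19 to 3.62). The barcodes with *UHRF1* were deeper, at a median of 6878 against 4830 UMIs. The T cell gene *CD3D* went the other way, in 42.4% of them against 60.5% of those without *UHRF1*, and *MS4A1* was in 9.70% against 3.88%. Among the 70 *UHRF1* barcodes without *MKI67*, *TOP2A*, or *MS4A1*, which had a median of 4284 UMIs, 16 carried *RAG1* (22.9%, 13.7 to 34.4) and 21 *CD3D* (30.0%, 19.6 to 42.1). In the NB cecum and NB rectum 0 of 156 and 0 of 284 *CD3E* barcodes with *UHRF1* carried *RAG1*, although these were deeper at medians of 12735 and 12473 UMIs. A limit of 3 counts puts these zeros at shares of up to 1.92% and 1.06%, and the exact upper bounds were 2.34% and 1.29%. In the NB duodenum 2 of only 6 *UHRF1* barcodes carried *RAG1*, and 0 of 95 without *UHRF1* did.

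Replication genes were higher per UMI in barcodes that also carried the mitotic genes *MKI67* or *TOP2A*. In 42 groups at least 50 barcodes carried either gene, and in 41 of these the summed CPM of the 10 replication genes was 2-fold or more higher in them than in the other barcodes of the group. The median ratio was 4.74. These barcodes held 10.8% of the UMIs of the 10 genes in the *CD3E* group of the AD duodenum to 87.5% in the *MS4A1* group of the NB ileum, and 50% or more in 22 of the 42 groups. In the NB ileum *MS4A1* group, 51.0% of the barcodes carried *MKI67* or *TOP2A*, and they held 68.2% of all UMIs. In the AD cecum *MS4A1* group, 66 of the 601 barcodes did so and held 78.2% of the UMIs of the 10 genes. With the marker alone, the exception was the epithelium of the NB reticulum, where 1511 CPM with *MKI67* or *TOP2A* stood against 984 CPM without, a ratio of 1.54. Under stricter marker rules more groups fell below 2-fold. The count at 2-fold or more was 32 of 36 groups with 2 UMIs of the marker, 30 of 35 with 2 further markers, and 27 of 33 with markers of 1 lineage only. Deeper barcodes are more likely to show any gene, and the part of depth in these ratios was not tested.

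**Figure D2:**
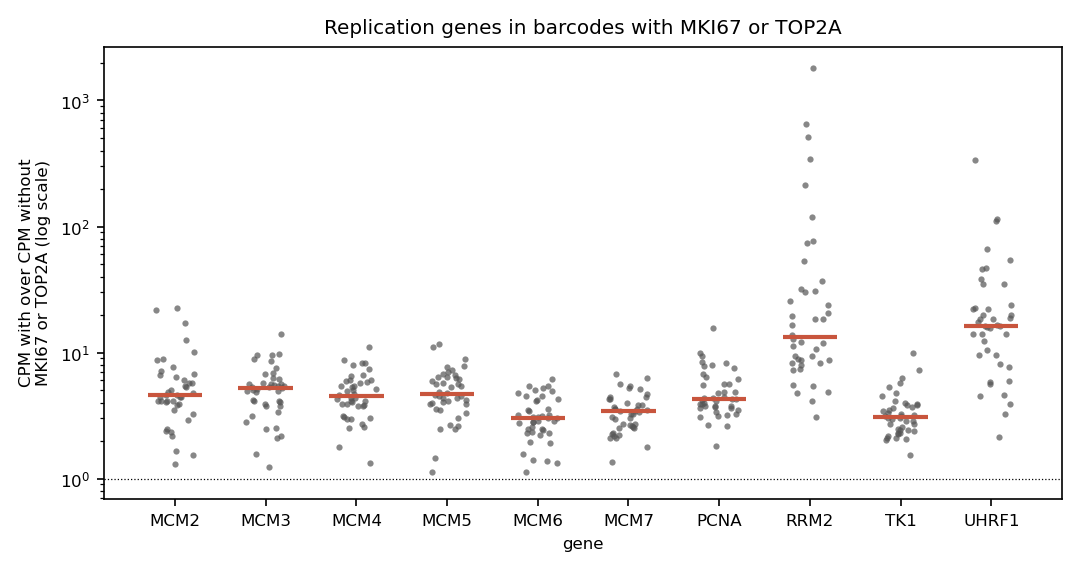
Ratio of the CPM of each replication gene in barcodes with *MKI67* or *TOP2A* to that in the other barcodes of the same group, on a log scale. Each point is 1 of the 42 groups with 50 or more such barcodes (groups with no UMI of the gene outside them cannot be drawn), red lines are medians, and the dotted line marks equal levels; *RRM2* and *UHRF1* lie highest and *MCM6* and *TK1* lowest.

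The genes differed in how strongly they were tied to these barcodes. The median ratio was 16.3 for *UHRF1* and 13.3 for *RRM2*, between 4.27 and 5.19 for *PCNA*, *MCM2*, *MCM3*, *MCM4*, and *MCM5*, and 3.41 for *MCM7*, 3.09 for *TK1*, and 3.03 for *MCM6*. Outside the mitotic barcodes the median level over the 42 groups was 7.41 CPM for *UHRF1* and 9.05 CPM for *RRM2*, against 144 and 131 CPM inside. The NB colon *CD3E* barcodes departed from this, with 86.7 CPM of *UHRF1* outside and 908 CPM inside. The next highest *UHRF1* level outside among *CD3E* groups was 22.8 CPM, in the NB ileum.

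For the stage comparison, NB and AD barcodes of the same marker were set side by side in duodenum, jejunum, cecum, and colon, which gave 20 comparisons with 50 or more barcodes at both stages. A gene was called at a ratio of 2-fold or more in CPM + 5, among genes with 10 CPM or more at either stage. Of 200 gene comparisons, 82 were called higher in NB and 11 higher in AD. Over all tested genes of the 20 comparisons added up, 12.2% were called higher in NB and 10.6% higher in AD. In 7 comparisons fewer than 20% of the barcodes were supported by further markers at one of the stages (*EPCAM* or *KRT14* in duodenum, *MS4A1* in jejunum and cecum, and *PECAM1* in all 4 tissues), and these gave 23 of the 82 and 9 of the 11 calls. The other 13 gave 59 of 130 higher in NB, against 9.99% of all genes, and 2 higher in AD, against 10%. The median log2 ratio over all tested genes lay more than 0.1 from 0 in 8 of the comparisons, at -0.36, -0.33, -0.13, and -0.37 for *EPCAM* or *KRT14* barcodes of duodenum, jejunum, cecum, and colon, -0.21 for *CD3E* in jejunum, -0.30 for *MS4A1* in cecum, and 0.53 and 0.20 for *PECAM1* in duodenum and jejunum.

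**Figure D3:**
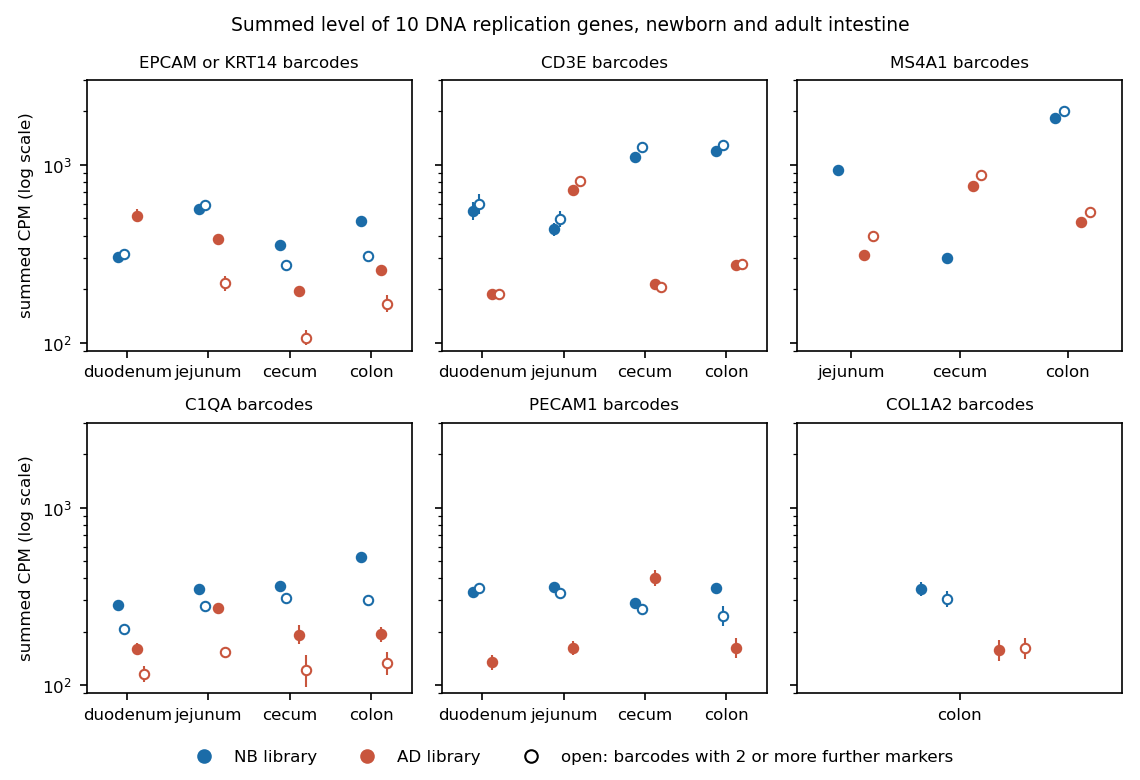
Summed CPM of the 10 replication genes (log scale) in NB and AD libraries for each marker and tissue, with 95% Poisson intervals of counting error; filled points use the marker alone and open points require 2 further markers and at least 50 barcodes. NB points lie above AD points except for *CD3E* in jejunum, *MS4A1* and *PECAM1* in cecum, and *EPCAM* or *KRT14* in duodenum. Of these exceptions only *CD3E* in jejunum was supported by further markers at both stages.

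T cell barcodes of cecum and colon showed the largest stage differences of the 20 comparisons, and those of jejunum the opposite direction. The summed level was 1100 CPM in NB and 213 CPM in AD cecum, a ratio of 5.16 (4.98 to 5.34), and 1201 against 273 CPM in colon, a ratio of 4.40 (4.25 to 4.54). In duodenum it was 550 against 186 CPM, a ratio of 2.95 (2.61 to 3.33), although only 101 NB barcodes were available. In jejunum it was 433 CPM in NB and 719 CPM in AD, so the AD barcodes held 1.66 times the NB level (1.52 to 1.82). Markers of other lineages moved with stage in these groups. In cecum 359 of 755 NB barcodes carried *CD3E* as the only one of the lineage markers (211 also carried *COL1A2* and 143 *C1QA*), against 6758 of 7439 in AD, and the median UMIs were 6832 and 3542. In colon it was 620 of 810 against 6721 of 7398, with 4961 and 3797.5 UMIs. With markers of 1 lineage only, the ratio of NB to AD was 2.91 in duodenum, 0.655 in jejunum, 6.20 in cecum, and 4.84 in colon. The direction thus differed between the jejunum and the other 3 tissues, and this difference was not tested.

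In cecum all 10 genes were called higher in NB T cell barcodes, where 12.7% of all tested genes were. In colon 9 of 10 were, against 9.7% of all genes, with *MCM3* at a log2 ratio of 0.96 just below the threshold. In duodenum 7 of 10 were, against 14.4%. In jejunum 0 were called higher in NB, against 9.73%, and *MCM3* and *UHRF1* were called higher in AD, against 9.56%. In the other 3 tissues 0 genes were called higher in AD, against 13.5% of all genes in duodenum, 8.13% in cecum, and 10.8% in colon.

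*RRM2* in *CD3E* barcodes held 40.0 CPM in NB and 1.94 CPM in AD duodenum, 87.3 and 5.48 CPM in cecum, and 62.9 and 11.5 CPM in colon, which are ratios of 20.6, 16.0, and 5.47. The intervals of these ratios were 11.7 to 35.2, 13.3 to 19.2, and 4.68 to 6.39, and the duodenum ratio rests on 21 NB UMIs. *UHRF1* held 51.4 and 2.89 CPM, 105 and 7.47 CPM, and 289 and 17.0 CPM in the same tissues, which are ratios of 17.8, 14.1, and 17.0. *MCM6* held 17.1 and 16.8 CPM in duodenum, and the interval of their ratio (0.464 to 1.96) included equality. In the AD jejunum the 2 genes stood at 58.9 CPM (*RRM2*) and 61.2 CPM (*UHRF1*), against 28.9 and 21.3 CPM in NB.

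The share of mitotic barcodes moved with these levels. *MKI67* or *TOP2A* was carried by 198 of 755 *CD3E* barcodes in NB and 158 of 7439 in AD cecum, by 130 of 810 and 262 of 7398 in colon, and by 13 of 252 and 545 of 3824 in jejunum. Among the barcodes without either gene, the summed level was 413 against 160 CPM in cecum (ratio 2.57, 2.43 to 2.73), 569 against 182 CPM in colon (3.13, 2.98 to 3.30), and 278 against 170 CPM in duodenum (1.63, 1.35 to 1.95). In jejunum it was 295 against 314 CPM, a ratio of 0.940 whose interval (0.835 to 1.05) included equality. The shares with *MKI67* or *TOP2A* were not thinned to equal depth. Median UMIs of the *CD3E* barcodes were 6832 in NB and 3542 in AD cecum, and 4961 and 3797.5 in colon. They were 4387 and 3505 in duodenum and 3988.5 and 3935 in jejunum. The part of depth in these shares and ratios was not tested.

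B cell barcodes could be compared as a supported lineage in colon alone. There the summed level was 1824 CPM in NB and 478 CPM in AD, a ratio of 3.82 (3.57 to 4.09), and it was 3.70 with 2 further markers. In this comparison 9 of 10 genes were called higher in NB, against 8.82% of all genes, and *MCM3* had a log2 ratio of 0.94. No gene (0 of 10) was called higher in AD, against 6.95%. *MCM5* held 226 and 43.3 CPM, a ratio of 5.21 (4.16 to 6.61), and *PCNA* held 559 and 111 CPM, a ratio of 5.02 (4.36 to 5.80). Mitotic barcodes made up 368 of 1071 in NB and 27 of 283 in AD, and without them the levels were 469 and 224 CPM.

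By the *MS4A1* rule, jejunum gave 938 CPM in NB and 312 CPM in AD, a ratio of 3.01 (2.77 to 3.28), with 7 of 10 genes called higher in NB against 15% of all genes and 0 higher in AD against 10.9%. Cecum gave the opposite, 297 CPM in NB and 757 CPM in AD, so that AD held 2.55 times the NB level (2.35 to 2.77), and 7 genes were called higher in AD against 18.4% of all genes and 0 higher in NB against 13.3%. The NB barcodes of both tissues lacked further B cell markers and were deep, with median UMIs of 13589 and 14868 against 6332 and 4602 in AD. Without *MKI67* or *TOP2A* barcodes the ratios of NB to AD were 2.39 and 0.774. With no upper limit on genes or UMIs, 0 genes were called higher in AD over the 3 tissues with *MS4A1* comparisons, where 9.26% of all genes in jejunum, 14.2% in cecum, and 9.55% in colon were, and the cecum ratio was 0.618. With 2 *MS4A1* UMIs required it was 0.238, and by the mean CPM of single barcodes 0.636. Barcodes above the upper limits were not scored for doublets, here and for the other markers below.

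*EPCAM* or *KRT14* barcodes of jejunum, cecum, and colon held more replication gene RNA in NB, by less than 2-fold in the sum with the marker alone. With 2 further markers the sum passed 2-fold in jejunum and cecum, as given below. The levels were 564 against 381 CPM in jejunum (ratio 1.48, 1.39 to 1.58), 353 against 195 CPM in cecum (1.81, 1.69 to 1.94), and 484 against 256 CPM in colon (1.89, 1.76 to 2.03). All 10 genes leaned to NB in each of the 3 tissues, but only 1 was called in jejunum (*UHRF1*, against 7.13% of all genes), 2 in cecum (*RRM2* and *TK1*, against 10.6%), and 1 in colon (*MCM5*, against 4.35%). These counts with the marker alone are near the background of this rule and depend on the scaling, the filters, and the marker rule. Over the 4 tissues, 4 genes were called higher in NB. The count was 12 with the median log2 ratio of all genes set to 0, 16 with no upper limit on genes or UMIs, and 1 under 10% mitochondrial UMIs, without an all-gene share for these settings. In the same 3 tissues 0 genes were called higher in AD, against 15.5% in jejunum, 7.52% in cecum, and 18.4% in colon. With no upper limit on genes or UMIs the ratios were 2.36 in cecum (452 against 192 CPM) and 3.31 in colon (861 against 260 CPM). In colon *MCM5* held 60.3 CPM in NB and 17.4 CPM in AD, a ratio of 3.47 (2.66 to 4.59).

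The requirement of 2 further epithelial markers changed these counts. By the marker alone, 411 of 702 barcodes in the AD cecum and 288 of 471 in the AD colon also carried *CD3E*. With further markers the levels became 595 against 216 CPM in jejunum (ratio 2.76), 274 against 107 CPM in cecum (2.57), and 306 against 166 CPM in colon (1.85), with 7, 6, and 4 genes called higher in NB, against 5.79%, 6.11%, and 4.28% of all genes tested in those barcodes. In duodenum the *EPCAM* or *KRT14* barcodes held 303 CPM in NB and 517 CPM in AD, with *MCM3* called higher in AD against 25.9% of all genes and 0 genes called higher in NB against 15.9%. Only 28 of the 204 AD duodenum barcodes carried 2 further markers, so no epithelial comparison could be made in that tissue.

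Macrophage barcodes leaned to NB in all 4 tissues. The summed level was 283 against 161 CPM in duodenum (ratio 1.76, 1.63 to 1.90), 349 against 271 CPM in jejunum (1.29, 1.25 to 1.33), 362 against 193 CPM in cecum (1.87, 1.66 to 2.12), and 525 against 193 CPM in colon (2.71, 2.45 to 3.01). Called higher in NB were 3 genes in duodenum (against 16% of all genes), 0 in jejunum (against 12%), 3 in cecum (against 9.96%), and 8 in colon (against 8.02%). Called higher in AD were 0 genes, against 7.71% of all genes in duodenum, 5.36% in jejunum, 6.11% in cecum, and 9.95% in colon. With 2 further markers the ratios were 1.79, 1.81, 2.56, and 2.26, and with no upper limit on genes or UMIs the colon ratio was 4.40 (874 against 199 CPM). Other lineages were more often present in the NB barcodes of duodenum, where 531 of 1620 carried no other lineage marker (613 carried an epithelial one) against 1027 of 1395 in AD, and of jejunum, with 1962 of 5255 against 4061 of 5310. The median UMIs were 8600.5 and 2727 in duodenum and 6290 and 3094 in jejunum. In cecum 557 of 1563 NB barcodes carried no other lineage marker against 163 of 324 in AD, with median UMIs of 9777 and 3299.5. Colon went the other way, with 373 of 636 against 204 of 445 and median UMIs of 3471.5 and 4039. With markers of 1 lineage only, the ratios were 1.74 in duodenum, 1.83 in jejunum, 2.75 in cecum, and 2.11 in colon. *UHRF1* in colon, at 61.7 against 12.8 CPM, depended on barcodes with markers of other lineages, since without them it was 10.2 CPM in NB and 12.6 CPM in AD.

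Endothelial barcodes could not be compared as a lineage, because the AD *PECAM1* barcodes lacked other endothelial markers. By the rule alone, the levels were 334 against 135 CPM in duodenum, 357 against 162 CPM in jejunum, 289 against 401 CPM in cecum, and 353 against 163 CPM in colon. Called higher in NB were 6 genes in duodenum (against 31.3% of all genes), 6 in jejunum (against 17%), 0 in cecum (against 13.8%), and 4 in colon (against 8.1%), and *UHRF1* was called higher in AD in cecum (against 6.31%). In the other 3 tissues 0 genes were called higher in AD, against 6.7% in duodenum, 7.09% in jejunum, and 7.25% in colon. With the median log2 ratio of all genes set to 0, these 16 calls higher in NB became 3, all in colon. In the AD cecum 3 of the 146 *PECAM1* barcodes carried *MKI67* or *TOP2A*, and without such barcodes the levels were 215 CPM in NB and 148 CPM in AD, a ratio of 1.45 (1.21 to 1.76). By the mean CPM of single barcodes the cecum ratio turned to 1.10. The duodenum ratio was 2.48, and 5.12 with markers of 1 lineage only, and the colon ratio was 2.17, and 3.79 with no upper limit on genes or UMIs.

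Fibroblast barcodes were compared in colon alone, with 212 barcodes in NB and 190 in AD. The summed level was 348 against 158 CPM, a ratio of 2.21 (1.88 to 2.60), and 6 of 10 genes were called higher in NB against 7.18% of all genes, and 0 higher in AD against 10.2%. *RRM2* had 18 UMIs (11.6 CPM) in NB and 0 in AD, which is at least 5.32-fold higher in NB against a floor of 3 counts over the AD group, and the counting interval of the ratio, which covers the NB count too, began at 3.90. *UHRF1* had 32 UMIs (20.6 CPM) in NB and 1 in AD (0.727 CPM), a ratio of 28.4 with a counting interval of 4.74 to 1155. *MCM7*, in contrast, held 51.6 and 40.0 CPM, a ratio of 1.29 whose interval (0.904 to 1.85) included equality. Without *MKI67* or *TOP2A* barcodes the summed levels were 244 and 158 CPM, a ratio of 1.55. With no upper limit on genes or UMIs they were 706 and 158 CPM, a ratio of 4.46, over 244 NB and 193 AD barcodes. In that setting 10 genes were called higher in NB, without an all-gene share, and the added barcodes were not scored for doublets. Other settings gave fewer calls than the 6 of the marker alone. They were 4 with 2 further markers, 4 with markers of 1 lineage only, 3 by the mean CPM of single barcodes, and 2 with 2 *COL1A2* UMIs. No all-gene share stands beside these counts, so they are set against the 6 only.

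**Figure D4:**
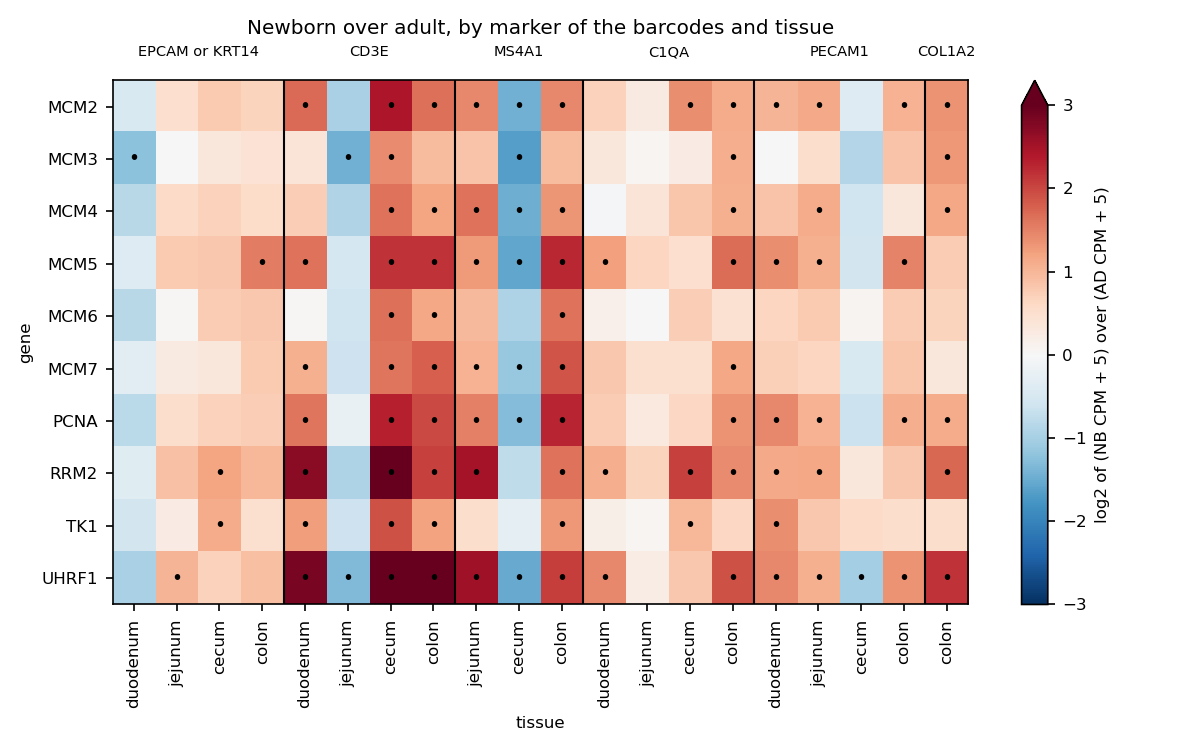
Log2 ratio of NB over AD in CPM + 5 for each replication gene (rows) in the 20 comparisons of marker and tissue (columns); red is higher in NB, blue higher in AD, the color ends at 3 and -3, and dots mark ratios of 2-fold or more. By the median over the 10 genes, the *CD3E* cecum (2.04), *CD3E* colon (1.72), and *MS4A1* colon (1.63) columns are the deepest red. All 10 genes are below 0 in *MS4A1* cecum, *CD3E* jejunum, and *EPCAM* or *KRT14* duodenum, of which only *CD3E* jejunum was supported by further markers at both stages.

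By gene over the 20 comparisons, *RRM2* was called higher in NB in 12 and higher in AD in 0, *UHRF1* in 12 and 3, *MCM2* and *MCM5* in 11 and 1 each, *PCNA* in 10 and 1, *MCM4* in 7 and 1, *TK1* in 7 and 0, and *MCM7* in 6 and 1. *MCM3* was called in 3 and 3 and *MCM6* in 3 and 0. In the 13 supported comparisons the counts were 9 and 0 for *RRM2*, 8 and 1 for *UHRF1*, 7 and 0 each for *MCM2* and *MCM5*, 6 and 0 each for *PCNA* and *TK1*, 5 and 0 each for *MCM4* and *MCM7*, 3 and 1 for *MCM3*, and 3 and 0 for *MCM6*. Over all tested genes, 12.2% were called higher in NB and 10.6% higher in AD in the 20 comparisons, and 9.99% and 10% in the 13 supported ones. In calls higher in NB, *MCM3* and *MCM6* lay nearest to these shares. The comparisons share libraries and barcodes and are not independent of each other.

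The share of barcodes carrying replication genes was compared after each barcode was thinned to 1000 UMIs. In 18 of the 20 comparisons the share of barcodes with 3 or more of the 10 genes was higher in NB, the exceptions being *CD3E* in jejunum and *MS4A1* in cecum. The intervals overlapped in 11 comparisons, were separate with NB higher in 8, and were separate with AD higher in 1 (*CD3E* in jejunum). In 9 of the 18, 3 or fewer AD barcodes had 3 or more genes. Thinned to 2000 UMIs, 17 of 20 were higher in NB, since *PECAM1* in colon turned to 2.99% against 3.26%, and unthinned 19 were. In *CD3E* barcodes it was 6.66% in NB against 0.458% in AD cecum, 9.08% against 0.732% in colon, 3 of 100 barcodes against 0.137% in duodenum, and 3 of 251 barcodes against 4.18% in jejunum. Unthinned, these shares were 34.0% against 2.62%, 26.5% against 4.46%, 15.8% against 2.11%, and 10.3% against 14.3%. In the *MS4A1* barcodes of colon the thinned shares were 15.6% and 4.27% (unthinned 38.7% and 9.89%).

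Plasma cell barcodes of the AD libraries gave thinned shares of 0.159% in duodenum (1 of 629, median 9421 UMIs), 0.983% in jejunum (4 of 407, 8457 UMIs), 0 of 111 in cecum (11642 UMIs), which allows a share of up to 2.70% at 3 counts (exact upper bound 3.27%), and 1.05% in colon (2 of 190, 10538 UMIs). Of these plasma cell barcodes 0.954%, 8.85%, 1.80%, and 5.26% carried *MKI67* or *TOP2A*, against 2.37%, 8.12%, 2.76%, and 3.84% of all kept barcodes of the same libraries. The thinned shares of 9 of 21 AD groups in these libraries were at or below those of the plasma cell barcodes. The intervals overlapped, since only 0 to 4 plasma cell barcodes per AD library had 3 or more genes. No expression is read from these 9 shares taken alone, and the stage comparisons above use them as counted. The 9 groups were *CD3E* in duodenum, *MS4A1* and *PECAM1* in jejunum, *C1QA* in cecum, and all groups but *MS4A1* in colon. The NB plasma cell barcodes stood at 1.49% in ileum (3 of 201, median 3551.5 UMIs), 1.72% in cecum (2 of 116, 11829 UMIs), and 1.08% in colon (1 of 93, 5924 UMIs), and of 18 NB groups beside them only *PECAM1* in cecum (1.47%) lay below. *MKI67* or *TOP2A* was carried by 58.6% of the plasma cell barcodes in the NB cecum, 18.3% in the NB ileum, and 6.45% in the NB colon, so these are values beside the groups and no background. No *C1QA* barcode of 319 in the AD cecum had 3 or more genes, which allows a share of up to 0.94% at 3 counts (exact upper bound 1.15%). The highest thinned share of all was 25.7% in the NB ileum *MS4A1* barcodes (24.3 to 27.1, unthinned median 4511 UMIs), followed by 19.5% in the NB ileum epithelial barcodes, the 15.6% of the NB colon *MS4A1* barcodes, and 13.8% in the NB reticulum epithelial barcodes.

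**Figure D5:**
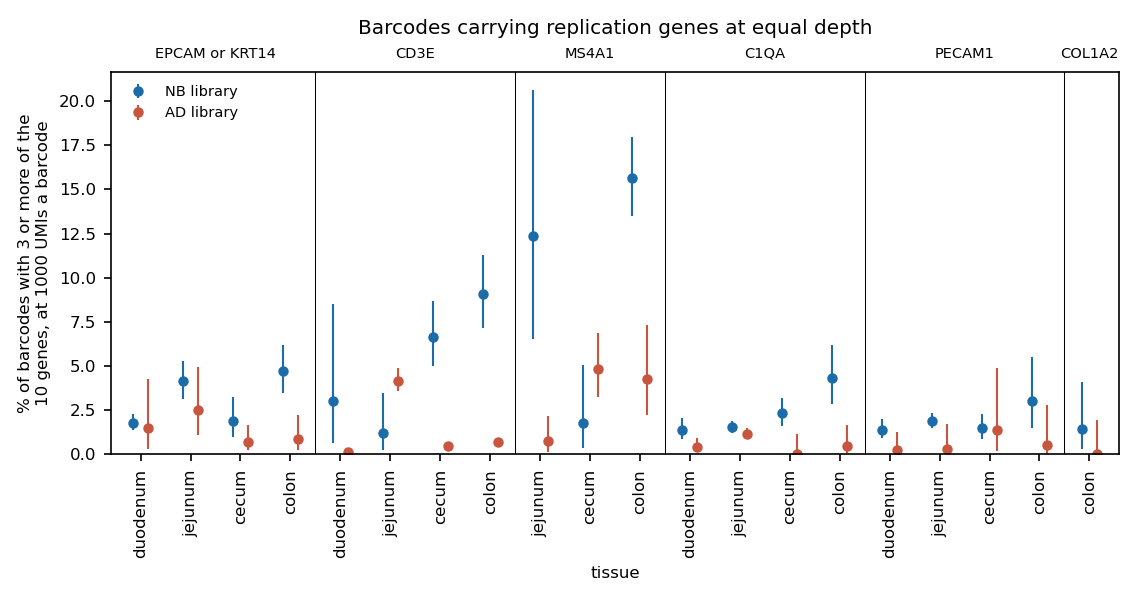
Percent of barcodes with 3 or more of the 10 replication genes after thinning to 1000 UMIs, in NB and AD libraries for each marker and tissue, with exact binomial 95% intervals. NB points are higher in 18 of 20 comparisons, and *CD3E* in jejunum and *MS4A1* in cecum are the exceptions.

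Other genes of the replication pathway were examined by the same call, in 6 lists of 85 listed genes, and are read against the 12.2% and 10.6% of all tested genes called higher in NB and in AD. Of the mitosis list, 115 of 300 tested gene comparisons (38.3%) were called higher in NB and 33 higher in AD, and of nucleotide supply, 40 of 130 (30.8%) and 3. The other lists lay nearer to the share of all genes in NB, with 33 of 194 (17.0%) for origin firing and fork genes, 40 of 287 (13.9%) for polymerases and clamp loading, 20 of 144 (13.9%) for chromatin copying, and 15 of 122 (12.3%) for origin licensing, where 17, 25, 13, and 6 were called higher in AD. For each comparison the median log2 ratio over the tested genes of a list was taken. The median of these values over the 20 comparisons was 0.77 for nucleotide supply, 0.56 for mitosis, and 0.32 for polymerases and loading. It was 0.19 for chromatin copying, 0.07 for firing and fork, and -0.11 for licensing, against -0.06 for all genes taken likewise. Over the 6 lists, 263 calls were higher in NB and 97 in AD. These were 470 and 45 with no upper limit on genes or UMIs, and those in AD were 43 with 2 further markers and 61 with the median log2 ratio of all genes set to 0. The 43 come from fewer comparisons, without *EPCAM* or *KRT14* in duodenum, *MS4A1* in jejunum and cecum, and *PECAM1*. They therefore do not show a fall from the 97. No all-gene share stands beside the counts of these 3 settings. Calls from comparisons without marker support are in all of these counts but the 43. By the *EPCAM* or *KRT14* rule in duodenum, 11 of 20 mitosis genes were called higher in AD (25.9% of all genes). By the *MS4A1* rule, 11 of 15 polymerase and loading genes were in cecum (18.4%), and 20 of 20 mitosis genes were higher in NB in jejunum (15%). In supported *CD3E* barcodes of jejunum, 11 of 20 mitosis genes were higher in AD (9.56%).

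The genes at the NB end of these lists were mostly those of the thymidine nucleotide route and of mitosis. *TYMS* (thymidylate synthase) had a median log2 ratio over the 4 tissues of 1.06 in *EPCAM* or *KRT14* barcodes (0.68 to 1.43) and 1.11 in *C1QA* barcodes (0.60 to 1.87), *DTYMK* (thymidylate kinase) had 1.28 by the *PECAM1* rule (-0.11 to 1.65), and *DUT* (dUTPase) had 2.01 in *CD3E* barcodes (-0.62 to 2.70). *UBE2C*, which marks mitotic regulators for destruction, had medians of 1.08 in *EPCAM* or *KRT14*, 2.22 in *CD3E*, and 2.45 in *MS4A1* barcodes. The tissue that departed went the other way for *UBE2C*, at -0.86 in *CD3E* barcodes of jejunum. By the rule alone it was -1.62 for *EPCAM* or *KRT14* in duodenum (called higher in AD, 32.0 against 109 CPM) and -0.70 for *MS4A1* in cecum. Neither of the latter was supported by further markers at both stages. *TOP2A* had a median of 2.08 in *CD3E* barcodes and -1.29 in those of jejunum, called higher in AD.

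At the AD end stood *CDC7*, the kinase that triggers origin firing by phosphorylating the MCM ring, with medians of -0.76 in *EPCAM* or *KRT14*, -1.01 in *CD3E*, -0.87 in *C1QA*, and -0.46 in *PECAM1* barcodes, below 0 in all 4 tissues of each. It was called higher in AD in only 1, 2, 1, and 0 of these tissues. The all-gene medians of the *EPCAM* or *KRT14* comparisons were also below 0, at -0.13 to -0.37. *PECAM1* in all 4 tissues and *EPCAM* or *KRT14* in duodenum were not supported by further markers at both stages. *RFC1*, the large subunit of the clamp loader, had -0.66 in *CD3E* (-1.18 to -0.56) and -0.66 in *PECAM1* barcodes (-1.19 to 0.18). *DNMT1*, the methyltransferase that the UHRF1 protein recruits, had -0.75 in *C1QA* barcodes (-0.95 to 0.12), where the median for *UHRF1* was 1.14 (0.23 to 1.91). The upper value for *UHRF1* is that of colon, which turned to -0.22 with markers of 1 lineage only. By the *MS4A1* rule over jejunum, cecum, and colon the ends were *AURKB* (2.60), *UBE2C*, and *TPX2* (2.19) against *RFC1* (-0.29), *ORC2* (-0.36), and *TIPIN* (-0.79). Colon alone was supported by further markers at both stages. There *RFC1* and *TIPIN* went the other way, at 260 CPM in NB against 184 CPM in AD and at 31.7 against 17.3 CPM. *ORC2* held 24.3 against 27.1 CPM in colon, and *AURKB*, *UBE2C*, and *TPX2* were higher in NB there. In the *COL1A2* barcodes of colon they were *TPX2* (2.71), *DUT* (2.40), and the licensing inhibitor *GMNN* (1.90) against *ORC2* (-0.67), *CDC7* (-1.56), and *POLA2* (-1.69).

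Most alike to the mean of the 10 genes over the 78 groups, on log2(CPM + 1), were *SMC2* (Pearson correlation 0.949), *GINS2* (0.946), *CLSPN* (0.944), *PCLAF* (0.942), and *CENPW* (0.939), among 12317 genes. *MIS18A*, *NCAPG*, *CENPK*, *PKMYT1*, and *DTYMK* completed the first 10, down to 0.925. Among the 10 genes themselves, *MCM5* and *PCNA* were most alike (0.971) and *MCM7* and *RRM2* least (0.746). The groups share libraries, depth, and barcodes, so these values are descriptions over 78 points that are not independent.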

How the data were processed

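Single-cell RNA libraries (10x Genomics) of 15 cattle samples were used. The authors counted UMIs per gene and barcode with Cell Ranger (3.1.0 per the submitters' processing notes) on the ARS-UCD1.2 genome, and the deposited values are raw UMI counts. The annotation release is not given in the sources used here. Following the study's limits, barcodes with 500 to 4000 genes, under 50000 UMIs, and under 40% UMIs of 13 mitochondrial genes were kept, and, in place of DoubletFinder, a Scrublet-type score (30 principal components, with 2 artificial doublets drawn for each barcode) was used to remove 0.8% of barcodes per 1000. Only barcodes within these limits were scored for doublets. The study's clusters and cell type names were not used here.

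Counts were summed over the barcodes of a library and marker, scaled to CPM, and given exact Poisson, conditional binomial (ratios), or Clopper-Pearson (shares) 95% intervals, which cover counting error only. No test was made, because a tissue was represented by 1 library at either stage. Genes were called at a 2-fold ratio of CPM + 5 among those with 10 CPM or more at either stage. The calls, intervals, and thinning were tested on simulated data. Total UMIs were 17707625 to 129458578 per library. The replication genes, marker lists, and pathway lists were chosen with earlier results of these data known. Named were the 10 genes, marker and reference genes, per marker the 3 pathway genes at each end of the median log2 ratio, *MKI67* and *TOP2A*, and the 10 most alike genes. *RAG1* and *CYM* were named after their values were seen. Of 86 pathway symbols, 85 are listed in the files. Mast cell (2 or more *CPA3* UMIs) and neutrophil barcodes were also counted. Mast cell barcodes held 499 CPM in the NB cecum, 322 CPM in the NB colon, and 606 CPM in the NB rectum, and no library had 50 neutrophil barcodes. Alternatives covered the marker rule, the filters, the scaling, the pseudocount, and the thinning. Tools were pandas 2.3.3, matplotlib 3.10.9, SciPy 1.17.1, scikit-learn 1.9.0, and NumPy 2.4.6 under Python 3.11.15.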

Additional observations from a re-analysis of the deposited data

Results flagged for a closer look

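The summed ratio of the 10 replication genes, NB over AD, pointed in opposite directions between tissues for 4 of the 6 markers, and these differences between tissues were not tested. *COL1A2* was compared in colon alone and could not show this. For *EPCAM* or *KRT14* barcodes it was 0.585 in duodenum, 1.48 in jejunum, 1.81 in cecum, and 1.89 in colon. For *CD3E* barcodes it was 2.95 in duodenum, 0.602 in jejunum, 5.16 in cecum, and 4.40 in colon. For *MS4A1* barcodes it was 3.01 in jejunum, 0.393 in cecum, and 3.82 in colon, and for *PECAM1* barcodes it was 2.48 in duodenum, 2.20 in jejunum, 0.721 in cecum, and 2.17 in colon. Without *MKI67* or *TOP2A* barcodes, which were 3 of 146 in the AD cecum, the *PECAM1* cecum ratio was 1.45, and by the mean CPM of single barcodes it was 1.10. The tissue that departed was supported by further lineage markers at both stages for *CD3E* in jejunum, and not for *EPCAM* or *KRT14* in duodenum, *MS4A1* in cecum, or *PECAM1* in cecum. The part of the dissociation kit, which differed between AD tissues, was not tested.

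Barcodes with more than 4000 genes, 7250 over the 15 libraries, were outside the study's limits and entered the comparisons only where the upper limit was lifted. They were not scored for doublets. In 5 of the 13 libraries with 50 or more of them, their summed level of the 10 genes was at least 2-fold that of the kept barcodes, at 295 CPM in the NB abomasum (93.6 CPM in kept barcodes), 992 CPM in the AD jejunum (370), 841 CPM in the NB jejunum (402), 574 CPM in the AD colon (259), and 1512 CPM in the NB liver (506). The AD duodenum (29 such barcodes, 2158 CPM) and the NB salivary gland (35, 1504 CPM) had fewer than 50.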

How the results depend on the processing

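With the marker alone, calls higher in NB and in AD were 4 and 1 for *EPCAM* or *KRT14* (epithelial below), 26 and 2 for *CD3E*, 16 and 7 for *MS4A1*, 14 and 0 for *C1QA*, 16 and 1 for *PECAM1*, and 6 and 0 for *COL1A2* barcodes, and 263 and 97 for the pathway lists. Of all tested genes, 12.2% and 10.6% were called with the marker alone. The counts below are set against the main counts only, without an all-gene share for each setting. The *CD3E* calls higher in NB and the *C1QA* calls stayed within 1.5 times under every alternative run. With 2 UMIs of the marker the counts were 14 and 0 for epithelial, 9 in NB for *MS4A1*, 8 and 0 for *PECAM1*, and 2 for *COL1A2*. With markers of 1 lineage only they were 14 and 0 for epithelial, 4 in AD for *CD3E*, 10 in NB for *MS4A1*, 0 in AD for *PECAM1*, and 27 of 33 groups had a 2-fold higher sum in mitotic barcodes, where the marker alone gave 41 of 42. There, the log2 ratio of *UHRF1* in *C1QA* barcodes of colon turned to -0.22. With 2 further markers they were 17 and 0 for epithelial, 9 and 0 for *MS4A1*, and 43 in AD for the pathway lists. These 3 settings left 1 to 3 tissues for epithelial, *MS4A1*, and *PECAM1* barcodes, with no *PECAM1* comparison under the last. With doublets kept they were 7 in NB for epithelial, 0 in AD for *PECAM1*, and 11 for *COL1A2*, over 2 tissues in place of 1. With no upper limit on genes or UMIs they were 16 in NB for epithelial, 0 in AD for *MS4A1* and *PECAM1*, 10 for *COL1A2*, and 470 and 45 for the pathway lists. Under 10% mitochondrial UMIs they were 1 and 0 for epithelial, 4 in AD for *CD3E*, and 2 in AD for *PECAM1*. With the median log2 ratio of all genes at 0 they were 12 and 0 for epithelial, 3 in NB for *PECAM1*, and 61 in AD for the pathway lists. With the mean CPM of single barcodes they were 9 and 0 for epithelial, 1 in AD for *MS4A1*, 0 in AD for *PECAM1*, and 3 for *COL1A2*, and 4 groups in place of 9 reached 1000 CPM. With a pseudocount of 1 CPM, calls in AD were 2 for epithelial, 5 for *CD3E*, and 2 for *PECAM1*. Apart from the smaller number of tissues, the causes were not tested. Of the values of single genes and groups, 1683 stayed within their counting interval and 520 moved beyond it. No paired analysis was possible because each tissue and stage had 1 library.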
